A study of Mus musculus with 11 samples.

Results

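The MYC difference of EC4 cells in growth medium is described here across every gene with enough reads. EC4 is a liver cancer line of the mouse whose MYC state can be switched. The medium was DMEM with 200 µM methionine for 24 h, which is also the methionine of the growth medium in the labels. There were 2 MYC high libraries (replicates 2 and 3, genotype MYC on) and 3 MYC low libraries (replicates 1 to 3, genotype MYC off), 5 of the 11 polyadenylated RNA libraries of the series. MYC high replicate 1 was not analysed here. The other 6 libraries were kept at 10 µM methionine and entered only the estimate of the spread and, for single genes, the test of whether the MYC difference changed with the medium. The files list 55416 gene identifiers, and 12764 of them averaged 10 or more normalized counts over the 5 libraries and were tested. A normalized count is the number of reads on a gene divided by the size factor of its library.

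As background, EC4 comes from a liver tumour of a mouse that carries a MYC transgene under tetracycline control, and the line is a single tumour's descendant. The labels give neither the agent that set the MYC state nor how long it was applied. Whether replicates are separate cultures is not stated either, so the p-values reflect spread among these libraries only, and that spread may be technical. MYC is a transcription factor that binds DNA as a dimer with MAX, most tightly at the E-box CACGTG. It is known for raising genes of ribosome assembly, nucleotide synthesis and cell cycle entry, and for holding down genes of adhesion and differentiation. Myc itself, the check of the labels, stood at 2164 and 2014 normalized counts in the MYC high libraries and at 1106, 1133 and 1168 in the MYC low libraries. Both MYC high values lay above the MYC low values, and the log2 difference was 0.88 ± 0.07 (limma's SE, adjusted p = 4.50e-14). Reads of a transgene from another species would be counted in that row only where they align to the mouse gene.

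Depth was 10858936 to 12066545 gene reads per library, with 17395 to 17891 genes detected by at least 1 read. The lowest correlation of log2 values within a group was 0.993 for MYC high and 0.994 for MYC low cells, and the highest between the groups was 0.933. Mitochondrially encoded genes took 0.870% and 0.839% of the reads of the MYC high libraries and 1.67% to 1.74% of those of the MYC low libraries. The label of a liver cell was checked against defining markers. Of 18 hepatocyte markers 11 had no read in any of the 5 libraries, albumin among them, and only Ass1, an enzyme of the urea cycle, was abundant enough to be tested. Biliary markers were present, with summed normalized counts of 7265 to 7324 in MYC high and 23586 to 23861 in MYC low. Macrophage and blood markers summed to 263 to 286 and 482 to 534, with Cd68 and Csf1r the 2 of 12 that were tested and Ptprc at 0. The 12 fibroblast markers summed to 3.18 to 14.3 normalized counts in a library and the 9 endothelial markers to 2.05 to 8.0, and none reached the mean of 10. In bulk RNA, fewer cells of a kind and less RNA per cell cannot be told apart. No spike-in is named, so every difference below is relative to the rest of the RNA.

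The MYC state was accompanied by a difference in most of the expressed genome. Genes up and down were near equal in number, a balance that depends on the scaling. With scaling to the library total, 4165 genes were higher in MYC high cells and 5338 lower. Among the differences of at least 2-fold, falls outnumbered rises. With limma on log2(value + 1) and Benjamini-Hochberg adjustment at 0.05, 4763 genes were higher in MYC high cells (37.3% of those tested) and 4764 were lower (37.3%), 74.6% in either direction. Most differences were small: the median size among the called genes was 0.63 on the log2 scale, and 1758 of them (18.5%) differed by less than 1.25-fold. At least 2-fold, 894 genes were higher (7%) and 1479 were lower (11.6%), and at least 4-fold, 94 were higher (0.736%) and 293 were lower (2.3%). Both MYC high values lay above all 3 MYC low values for 5271 genes (41.3%) and below them for 5171 (40.5%). The median difference over all tested genes was 0.00, with 5% of genes under -1.53 and 5% over 1.12. The filter was met through the MYC high libraries alone by 164 genes and through the MYC low libraries alone by 344, which fixed their direction. Of the 12256 genes that met the filter in both groups, 4651 were higher and 4484 lower, 787 and 1216 at least 2-fold, and 51 and 159 at least 4-fold. Where a list below holds genes tested through 1 group alone, its counts over the members that met the filter in both groups are given as well. Throughout, higher and lower mean higher and lower in MYC high cells, and log2 differences are of log2(value + 1), which understates the change of scarce genes. Many genes are named below because they had the largest differences or the smallest adjusted p of a list. Separate groups and small p-values among them follow from that choice.

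**Figure D1:**
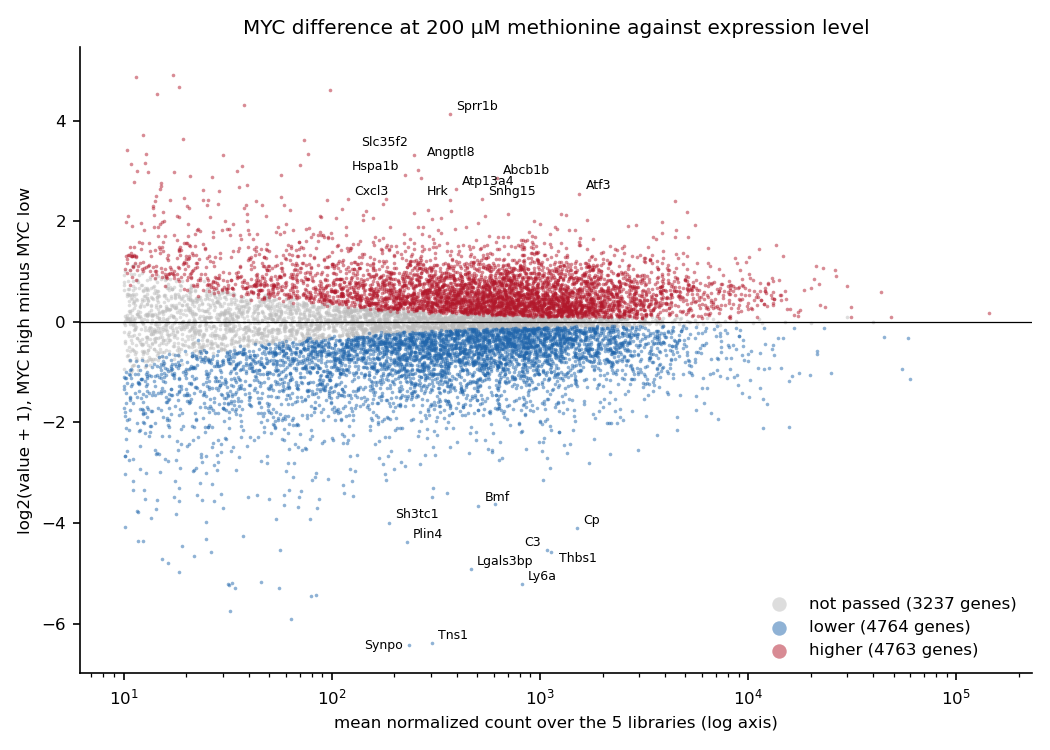
Each point is 1 of the 12764 tested genes, with its mean normalized count over the 5 libraries on a log axis and its log2 difference, MYC high minus MYC low; red and blue mark genes called higher and lower by limma at an adjusted p of 0.05. Called genes lie at every expression level, and the cloud reaches further down (to -6.42, Synpo) than up (to 4.90, Dntt, a scarce gene). Labelled genes have a mean of at least 100.

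What the strongly moved genes had in common besides their direction was described from the annotation. Genes at least 2-fold lower had a median transcript length of 3270 bases, those at least 2-fold higher 2366, and all tested genes 2904. Median transcript GC content was 51.5%, 51.2% and 50.1% in the same order. The genes at least 2-fold lower were moderately expressed in MYC low cells, with a median of 205 normalized counts there and 65.8 in MYC high cells. Those at least 2-fold higher had a median level of 402 normalized counts in MYC high libraries, against 159 in MYC low libraries. Protein-coding genes made up 86.7% of the lower and 81.0% of the higher set, against 85.1% of all tested genes.

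Among genes with a mean of at least 100, the 10 with the largest rise covered several unrelated functions. Sprr1b, a protein of the squamous cell envelope, had 784 and 913 normalized counts in MYC high and 49.7, 42.0 and 50.3 in MYC low libraries. Hrk, a BH3-only activator of cell death, had 577 and 532 and 65.3, 80.8 and 82.3. Abcb1b, a drug efflux pump of the ABC family, had 1309 and 1264 and 162, 173 and 197. In all 3 genes the groups were far apart and the libraries of a group differed little. Their log2 differences were 4.14 ± 0.10, 2.85 ± 0.25 and 2.86 ± 0.10, and limma's adjusted p was at most 7.73e-13. The others were Slc35f2, a nucleoside carrier relative (3.33), Angptl8, a secreted regulator of lipoprotein lipase (3.02), the stress-induced chaperone Hspa1b (2.93) and Atp13a4, a P5-type ATPase (2.65). Atf3, a stress-induced bZIP factor (2.55), the neutrophil chemokine Cxcl3 (2.45) and the noncoding snoRNA host Snhg15 (2.44) completed the group.

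The 10 genes with the deepest fall were led by parts of the actin and adhesion machinery. Tns1, which links integrins to actin filaments, had 5.71 and 4.24 normalized counts in MYC high libraries and 562, 477 and 462 in MYC low libraries. Synpo, an actin-bundling protein, had 2.29 and 5.30 and 414, 389 and 368. Both were close to the limit of detection in MYC high cells, where 3 reads are worth 3.18 to 3.43 normalized counts, and plainly present in all 3 MYC low libraries. Thbs1, a matrix glycoprotein that activates latent TGF-beta, had 67.4 and 85.9 and 1858, 1797 and 1843. C3, the central complement component, had 73.1 and 76.4 and 1836, 1661 and 1767, and ceruloplasmin (Cp), the copper-carrying ferroxidase of plasma, had 139 and 139 and 2349, 2508 and 2366. For these 3 genes the MYC low level exceeded the MYC high level 23.9-fold, 23.5-fold and 17.3-fold, with limma's adjusted p at most 3.63e-35. Bmf, a BH3-only protein tied to detachment from the matrix, fell from 834, 798 and 766 to 59.4 and 65.8 (12.8-fold). The remaining genes were Ly6a, a GPI-anchored surface protein (-5.22), Lgals3bp, a secreted galectin-3 ligand (-4.92), the lipid droplet coat protein Plin4 (-4.38) and Sh3tc1, a protein with SH3 and TPR repeats (-3.99).

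**Figure D2:**
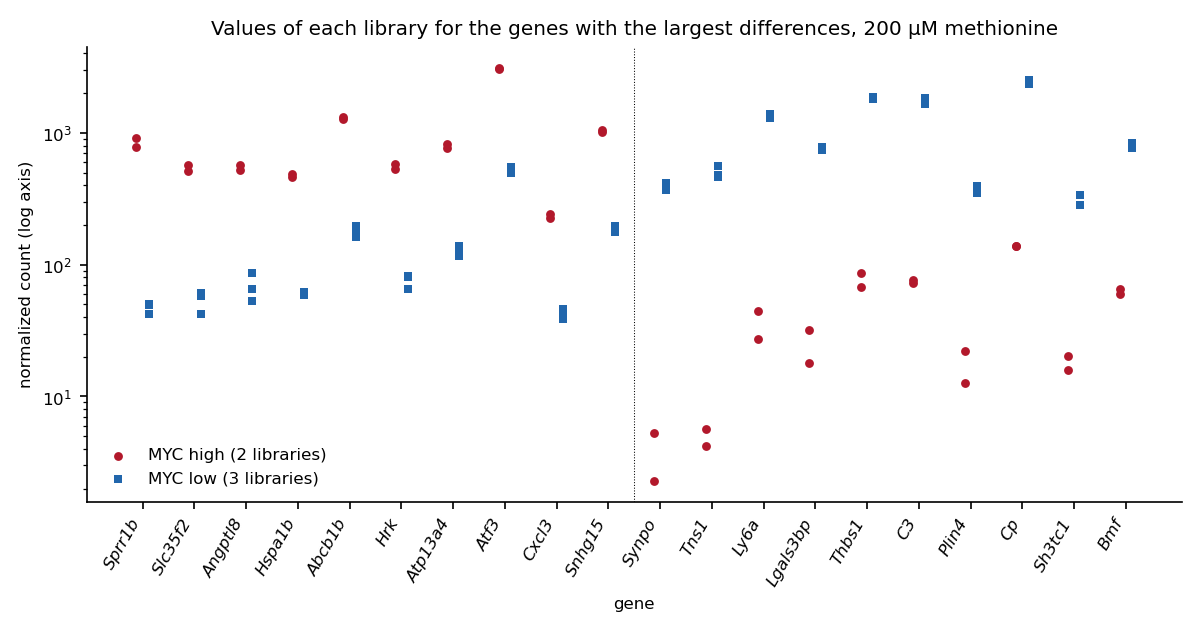
Normalized counts on a log axis of the 10 genes with the largest positive (left of the dotted line) and the 10 with the largest negative differences (right); circles are the 2 MYC high and squares the 3 MYC low libraries. In all 20 genes the groups are separate, which the rule that chose them required, and Synpo and Tns1 sit under 10 normalized counts in both MYC high libraries.

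Within the MYC network the partners did not move together. Of 20 tested members 12 were higher, 6 lower and 2 did not pass, with a median of 0.32. That is 60% higher and 30% lower, beside 37.3% of all tested genes in each direction. The ATPases Ruvbl1 and Ruvbl2, which sit in several chromatin and assembly complexes, rose by 1.15 and 0.97, and Wdr5, an adaptor for MYC on chromatin, rose by 1.02. MAX partners that oppose MYC split: Mxi1 had 1116 and 1143 normalized counts in MYC high and 641, 629 and 581 in MYC low libraries, a rise of 0.87 ± 0.06, whereas Mxd4 fell by 0.36 ± 0.06. For both genes the groups did not overlap. Trrap, a scaffold of acetyltransferase complexes recruited by MYC, fell by 0.60, and the ubiquitin ligase Huwe1 fell by 0.46. Mlx, the partner of the glucose-sensing MondoA and ChREBP factors, fell by 0.44. Zbtb17 (MIZ-1), through which MYC represses genes, differed by -0.01 ± 0.09 and Mxd3 by -0.05 ± 0.08, neither past the test.

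Ribosome assembly genes rose almost without exception. All 45 tested large subunit assembly factors and 39 of 40 members of the small subunit processome were higher, and so were 19 of 21 proteins of the snoRNP particles that guide ribosomal RNA modification. Their medians were 1.0, 0.92 and 1.06, against 0.00 over all tested genes, and 22, 17 and 12 of their members were at least 2-fold higher. Nop2, the ribosomal RNA cytosine methyltransferase of the series title, had 3051 and 3166 normalized counts in the MYC high and 1206, 1182 and 1239 in the MYC low libraries (1.36 ± 0.04). Lyar, a nucleolar factor with the largest rise of the large subunit list, had 1694 and 1703 and 403, 439 and 434 (2.0 ± 0.07). Nop56, a core protein of the box C/D particle, had 7878 and 8011 and 2179, 2256 and 2288 (1.82 ± 0.04). These 3 genes were named for the smallest adjusted p of their lists (limma's adjusted p at most 3.96e-25), and in each the 5 libraries split by MYC state. Tsr1 and Rrp12, late factors of the small subunit, rose by 1.51 and 1.53, and Nolc1, Nop58 and nucleolin (Ncl) by 1.65, 1.70 and 1.06. Exceptions were few: Ngdn of the processome differed by 0.20 ± 0.12 and Shq1, an assembly chaperone of the H/ACA particle, by -0.10 ± 0.11, and Pih1d1, another assembly factor, fell by 0.16. Pih1d1 did not pass without any single library other than MYC low replicate 2, and Ngdn passed at 0.40 without MYC high replicate 3 (limma's adjusted p = 0.0146).

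**Figure D3:**
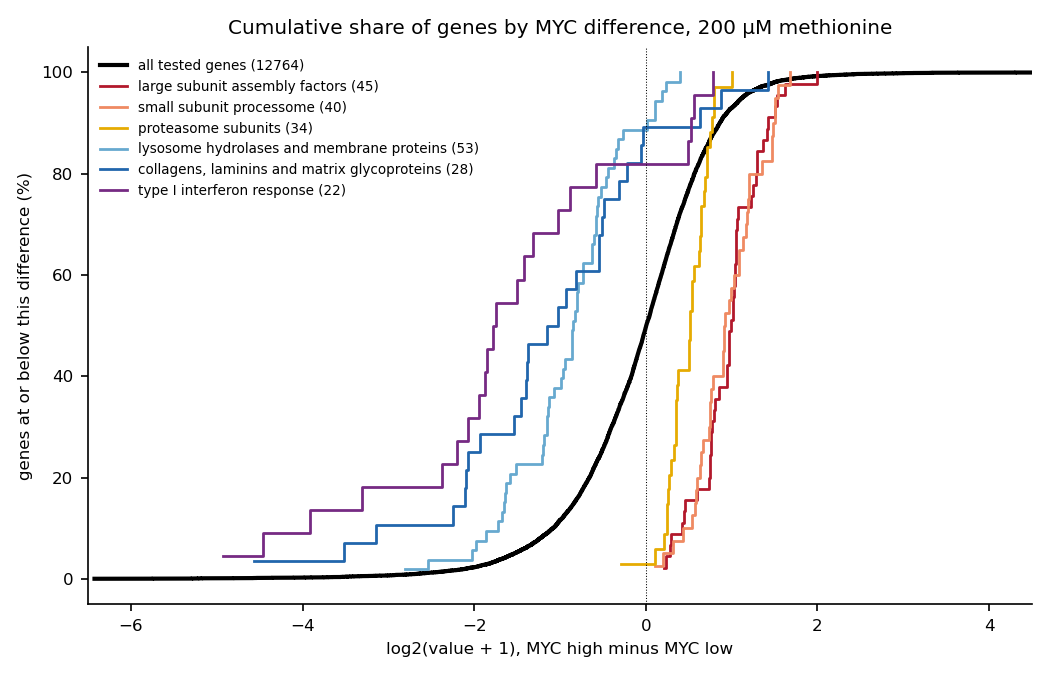
Cumulative share of genes (vertical axis, percent) at or below each log2 difference, MYC high minus MYC low (horizontal axis), for all 12764 tested genes in black and for the tested members of 6 lists. The curves of large subunit assembly, the processome and the proteasome stand to the right of the black curve, and those of lysosome, matrix and interferon genes to the left.

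The bases before the RefSeq start of several of these genes hold the E-box. The 250 bases upstream of the first start that RefSeq lists for a gene (build GRCm38.p6) were searched for CACGTG, which reads the same on both strands. Whether transcription begins at these starts in EC4 cells was not tested. It was held by 6.05% of the 27025 promoters that RefSeq lists, and of the tested protein-coding genes 780 of 8758 (8.91%). A promoter was found for 80.6% of those genes. In the small subunit processome 6 of 33 promoters held the E-box (18.2%), among large subunit assembly factors 2 of 38 (5.26%), in mitochondrial import 5 of 27 (18.5%) and in purine and pyrimidine synthesis 6 of 28 (21.4%). Other lists with mostly risen genes lay at or under the share of all tested genes: 0 of 11 TRiC and prefoldin promoters held it, 6.25% of exosome, 7.14% of proteasome, 7.46% of mitochondrial ribosomal protein, 8% of heat shock and 8.82% of splicing promoters. Initiation factors and nuclear pore proteins had 16.7% each, RNA polymerase I 13.3% and replication genes 11.9%. Lists that did not mostly rise also varied: MHC class I genes had 20%, tight junction genes 16.7%, the BCL2 family 15.4% and receptor tyrosine kinases 11.4%. Actin and autophagy genes had 8.82% each, complement genes 7.14%, innate sensors 6.9%, xenobiotic and zinc genes 6.67% each and interferon genes 5.26%. The mixed glycolysis list had 20%. Over all genes the share was 9.52% where the rise was under 2-fold, 9.67% where the fall was under 2-fold and 8.27% where the test was not passed. For the genes that moved by at least 2-fold the comparison is void, since 79.5% of the higher and 78.1% of the lower had a promoter, under the 80% required. A match describes these letters and shows no binding. The upstream sequences of the 4 genes of ribosome assembly, translation, RNA processing or mitochondrial import with the largest rise and an E-box are shown because they place the motif beside the measured change, with CACGTG in capitals. They lie at chr12:71136676-71136925 on the minus strand (Timm9, motif starting 58 bases before the start), chr6:125131633-125131882 on the plus strand (Nop2, 60), chr3:69721805-69722054 on the plus strand (Nmd3, 114) and chr17:33940473-33940722 on the plus strand (Wdr46, 12).
Timm9: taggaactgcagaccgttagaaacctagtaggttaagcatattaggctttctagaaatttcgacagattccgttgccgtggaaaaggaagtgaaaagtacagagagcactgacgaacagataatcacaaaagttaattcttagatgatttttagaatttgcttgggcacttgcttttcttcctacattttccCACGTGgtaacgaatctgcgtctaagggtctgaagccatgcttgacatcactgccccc
Nop2: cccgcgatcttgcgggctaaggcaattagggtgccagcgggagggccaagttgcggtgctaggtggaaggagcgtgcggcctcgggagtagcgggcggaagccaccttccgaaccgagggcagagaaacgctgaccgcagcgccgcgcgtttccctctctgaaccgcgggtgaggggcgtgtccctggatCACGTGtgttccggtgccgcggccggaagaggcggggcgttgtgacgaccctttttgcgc
Nmd3: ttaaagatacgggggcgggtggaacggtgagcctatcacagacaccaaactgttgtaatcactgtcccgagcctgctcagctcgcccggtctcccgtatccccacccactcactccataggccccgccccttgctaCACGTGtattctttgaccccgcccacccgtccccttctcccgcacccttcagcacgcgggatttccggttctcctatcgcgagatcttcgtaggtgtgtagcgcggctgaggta
Wdr46: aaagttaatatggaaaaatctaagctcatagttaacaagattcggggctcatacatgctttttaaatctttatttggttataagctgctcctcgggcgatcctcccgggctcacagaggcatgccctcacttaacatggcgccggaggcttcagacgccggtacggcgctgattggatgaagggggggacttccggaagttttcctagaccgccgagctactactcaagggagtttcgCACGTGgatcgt
Timm9, a chaperone of the mitochondrial intermembrane space, had 377 and 356 normalized counts in MYC high and 110.2, 131 and 131 in MYC low libraries (1.56 ± 0.12). Nmd3, the export adaptor of the large subunit, rose by 1.30 ± 0.06, and Wdr46, a scaffold of the processome, by 1.18 ± 0.05.

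The polymerases that make the RNA of the ribosome differed in their response. Of 15 tested components of RNA polymerase I, which makes the large ribosomal RNAs, 13 were higher, 1 lower and 1 not passed, with a median of 0.83. The subunits Polr1b and Polr1a rose by 1.49 and 1.08, and the HMG-box factor Ubtf, which opens ribosomal DNA, had 6863 and 6686 normalized counts in MYC high and 4035, 4050 and 3942 in MYC low libraries. Taf1b of the promoter selectivity factor fell by 0.47, and the terminator protein Ttf1 differed by 0.0027 ± 0.07. RNA polymerase III, which makes 5S ribosomal RNA and transfer RNAs, split into 10 higher, 9 lower and 3 not passed of 22, with a median of 0.11. These shares, 45.5% and 40.9%, lie near the 37.3% of all tested genes in each direction. Polr3g, the subunit typical of growing and pluripotent cells, had 260.5 and 281 and 126, 135 and 118 (1.09 ± 0.11). Its paralogue Polr3gl had 38.9 and 54.1 and 86.8, 67.5 and 81.3 (-0.76 ± 0.19). The pair moved in opposite directions with no overlap between the groups in either gene. Maf1, the repressor of polymerase III, fell by 0.63 ± 0.06, and of the factor TFIIIC, Gtf3c4 rose by 0.95 while Gtf3c1 fell by 0.46.

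Genes that process, export and translate RNA were higher in most cases. Of 80 tested cytosolic ribosomal proteins 79 were higher with a median of 0.59, and Rpl37a did not pass, or 78 of the 79 in both groups. Many ribosomal protein genes have near-identical pseudogene copies, so reads could be split between them. In 39 snRNP and splicing proteins 38 were higher (median 0.84), led by the SR protein Srsf2 with 8672 and 8884 normalized counts in MYC high and 2731, 2674 and 2792 in MYC low libraries. Hnrnpa1, an abundant regulator of splice site choice, was the exception at -0.0013 ± 0.03. Of 18 RNA exosome genes 15 were higher (median 0.75), with the cap subunit Exosc2 at 1.62, and its cofactor C1d fell by 0.33. Nuclear pore proteins were higher in 27 of 28 cases (median 0.57), and import and export receptors in 25 of 28 (median 0.56). Rangap1, which sets the Ran gradient, rose by 1.29 and the microRNA precursor exporter Xpo5 by 1.17, while Ipo8 fell by 0.63. Of 37 initiation factors 32 were higher, 2 lower and 3 not passed (median 0.53). The cap-binding protein Eif4e had 3029 and 3154 and 1451, 1450 and 1489, a rise of 1.08 ± 0.04 with wide separation of the groups. The initiation factor Eif4g3 fell by 0.97 ± 0.06. Elongation and termination factors were 14 higher, 3 lower and 2 not passed of 19, with the hypusinated factor Eif5a at 1.31 and Eef2k, the kinase that inhibits elongation, at -0.85.

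Most protein folding and turnover genes rose, with a few opposed members. All 8 subunits of the chaperonin TRiC, which folds actin and tubulin, were higher, led by Cct6a with 8304 and 8649 normalized counts in MYC high and 3726, 3758 and 3862 in MYC low libraries. Prefoldin, which hands clients to TRiC, split in the same list of 14 (11 higher, 3 lower, median 0.69): Vbp1 fell by 0.37, Pfdn5 fell by 0.35 and Pfdn1 fell by 0.19. Heat shock chaperones were 25 higher, 3 lower and 3 not passed of 31, with a median of 0.51. The inducible chaperone Hspa1a, the member with the largest rise, had 149.7 and 152 and 11.7, 24.6 and 15.5, and Hsph1 had 2691 and 2875 and 1143, 1101 and 1127. Their groups did not overlap, and the rises were 3.12 ± 0.29 and 1.31 ± 0.04. Hspa1a and Hspa1b are near-identical copies, so their reads may have been shared. Hspa2, a chaperone known from germ cells, went the other way with 50.3 and 42.4 and 324, 323 and 333 (-2.79 ± 0.10). The master regulator Hsf1 fell by 0.13, a call lost without MYC high replicate 2 or MYC low replicate 1 (limma's adjusted p = 0.237 and 0.140), and the cochaperone Bag3 differed by -0.04 ± 0.05. Of 34 proteasome subunits 33 were higher (median 0.51), from the core subunit Psma6 at 1.0 downward, and Psme4, an alternative activator cap, fell by 0.29.

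Mitochondrial genes of the nucleus and of the organelle moved in opposite directions. Nuclear genes of protein import and quality control were 26 higher and 4 not passed of 30 (median 0.55), and mitochondrial ribosomal proteins were 58 higher, 5 lower and 13 not passed of 76 (median 0.43). The import receptor Tomm70a rose by 0.94 and the ribosomal proteins Mrpl45 and Mrps30 by 1.12 and 1.07, while Mrps33 fell by 0.57. All 8 tested messenger RNAs of the organelle's own genome were lower, with a median of -1.05, among them mt-Nd2 at -1.32 and mt-Cytb at -1.02. In the tricarboxylic acid cycle and glutamine list 25 of 37 were higher, 8 lower and 4 not passed (median 0.34). Slc1a5, the main glutamine carrier, had 2557 and 2426 normalized counts in MYC high and 566, 564 and 571 in MYC low libraries (2.13 ± 0.06). Idh1, the cytosolic isocitrate dehydrogenase, had 367 and 367 and 1706, 1619 and 1579 (-2.15 ± 0.04). The carrier was 4.40-fold higher and the enzyme 4.46-fold lower with no overlap, and limma's adjusted p was at most 1.17e-28. Pyruvate carboxylase (Pcx) fell by 1.62 and glutamine synthetase (Glul) fell by 0.80, while Ppat, which commits glutamine nitrogen to purines, rose by 1.36.

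Glycolysis genes did not move together, although their summed level was higher in MYC high cells. Over the whole list it was 113800 to 117130 normalized counts in MYC high and 76603 to 77554 in MYC low libraries. Of 25 tested members 13 were higher (52%), 8 lower (32%) and 4 not passed, with a median of 0.20. Among all tested genes 37.3% were called in each direction. The smallest adjusted p belonged to late enzymes: Pkm had 30438 and 31899 normalized counts in MYC high and 14569, 14212 and 14745 in MYC low libraries, and Pgk1, Eno1 and Ldha rose by 1.17, 0.93 and 0.80. Members on the opposite side included early steps: the glucose carrier Slc2a1 had 564 and 581 and 976, 803 and 895, and hexokinase Hk1 and the phosphofructokinase Pfkm were lower, at -0.82 and -0.90, while the phosphofructokinase Pfkl differed by -0.03 ± 0.04 and did not pass. Neither Pkm nor Slc2a1 overlapped between the groups. Kinases that inhibit pyruvate dehydrogenase differed by member, with Pdk3 at 2.0 and Pdk2 at -1.59. Nucleotide synthesis was higher in 23 of 30 genes, lower in 4 and not passed in 3 (median 0.71). Umps, which makes uridine monophosphate, had 3007 and 3172 and 758, 753 and 766 (2.02 ± 0.05), and the salvage kinase Uck2 rose by 1.83. Adssl1, the muscle-type adenylosuccinate synthase, fell by 1.58 and the phosphoribosyl pyrophosphate synthetase Prps2 fell by 0.85. Amino acid carriers were 9 higher, 12 lower and 2 not passed of 23 (median -0.36). The shares were 39.1% higher and 52.2% lower, against 37.3% of all tested genes in each direction. Slc7a5 stood at 1.27 and Slc43a2, another carrier of large neutral amino acids, at -2.49.

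Iron and zinc handling held opposed pairs. Tfrc, the transferrin receptor that brings iron in, had 6885 and 7167 normalized counts in MYC high and 1706, 1781 and 1837 in MYC low libraries (1.99 ± 0.04). Ferroportin (Slc40a1), which lets iron out, had 177 and 197 and 595, 606 and 571 (-1.65 ± 0.06). The receptor was 3.96-fold higher and the exporter 3.15-fold lower, both without overlap. The mitochondrial iron importer Slc25a37 rose by 1.08, and the ferrireductases Steap2 and Steap3 were lower, at -0.74 and -0.78. Over the iron list 7 of 18 were higher, 9 lower and 2 not passed, with a median of -0.02. The shares were 38.9% higher and 50% lower, against 37.3% of all tested genes in each direction. Of 17 zinc carriers and metallothioneins 4 were higher, 10 lower and 3 not passed (median -0.25). The metal-binding protein Mt1 had 406 and 388 and 1260, 1247 and 1260 (-1.66 ± 0.05), and the importer Slc39a6 rose by 1.30.

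Cell cycle genes rose in the stage of DNA replication and split elsewhere. Of 51 genes of origin licensing and the fork 46 were higher, 3 lower and 2 not passed (median 0.64), and 16 were at least 2-fold higher. Mcm5 and Mcm3, subunits of the replicative helicase, had 3720 and 3636 and 7076 and 7092 normalized counts in MYC high libraries against 1330, 1389 and 1344 and 2686, 2745 and 2863 in MYC low libraries. The rises were 1.44 ± 0.04 and 1.36 ± 0.04, and no library of either group reached the other. Chaf1b, a chromatin assembly factor, fell by 0.40. Mitotic genes were 30 higher, 14 lower and 11 not passed of 55 (median 0.31). Their shares were 54.5% higher and 25.5% lower, against 37.3% of all tested genes in each direction. Cdc20, an activator of the anaphase-promoting complex, rose by 1.01 and the spindle motor Kif11 by 0.81, while cyclin B2 (Ccnb2) had 214 and 186 and 461, 465 and 454 (-1.20 ± 0.06). Topoisomerase Top2a differed by -0.00038 ± 0.03 and the kinase Plk1 by 0.02 ± 0.06, both short of the test.

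Regulators of G1 moved in both directions, 18 higher, 7 lower and 5 not passed of 30 (median 0.22). These shares, 60% and 23.3%, stand beside 37.3% of all tested genes in each direction. E2f2, an activator of replication genes and the largest rise of the list, had 694 and 745 normalized counts in MYC high and 134, 126 and 142 in MYC low libraries (2.42 ± 0.10). Cdc25a, the phosphatase that activates CDK2, had 1465 and 1669 and 504, 462 and 473 (1.70 ± 0.07). Cyclin D1 (Ccnd1) had 2808 and 2643 and 7441, 7374 and 7945 (-1.48 ± 0.04). The first pair was higher and cyclin D1 lower in both MYC high libraries than in any MYC low library, with limma's adjusted p at most 1.14e-22. Among inhibitors, p21 (Cdkn1a) rose by 1.20 ± 0.04 and p19 (Cdkn2d) fell by 1.21 ± 0.11. Of the pocket proteins that bind E2F factors, Rbl2 fell by 1.69 and Rb1 fell by 0.51, and Rbl1 differed by -0.11 ± 0.07. E2f1 differed by -0.08 ± 0.05.

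The BCL2 family, which sets the threshold for cell death, was 7 higher, 5 lower and 3 not passed of 15. These shares, 46.7% higher and 33.3% lower, stand beside 37.3% of all tested genes in each direction. Besides Hrk, the death-promoting Bbc3 (PUMA) had 820.3 and 799.9 normalized counts in MYC high and 366, 348 and 407 in MYC low libraries (1.12 ± 0.07), and Bax rose by 0.77. The protective members Bcl2, Bcl2l1 and Mcl1 were lower, at -1.67, -0.47 and -0.22. Bmf, which promotes death, fell as given above, and the protective Bcl2l2 differed by -0.03 ± 0.12 and did not pass. Bid and Bad, which also promote death, did not pass either. Other members called higher or lower are not named here. The median of the list was -0.02, and it was 0.11 without MYC high replicate 2 and -0.10 with scaling to the library total.

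**Figure D4:**
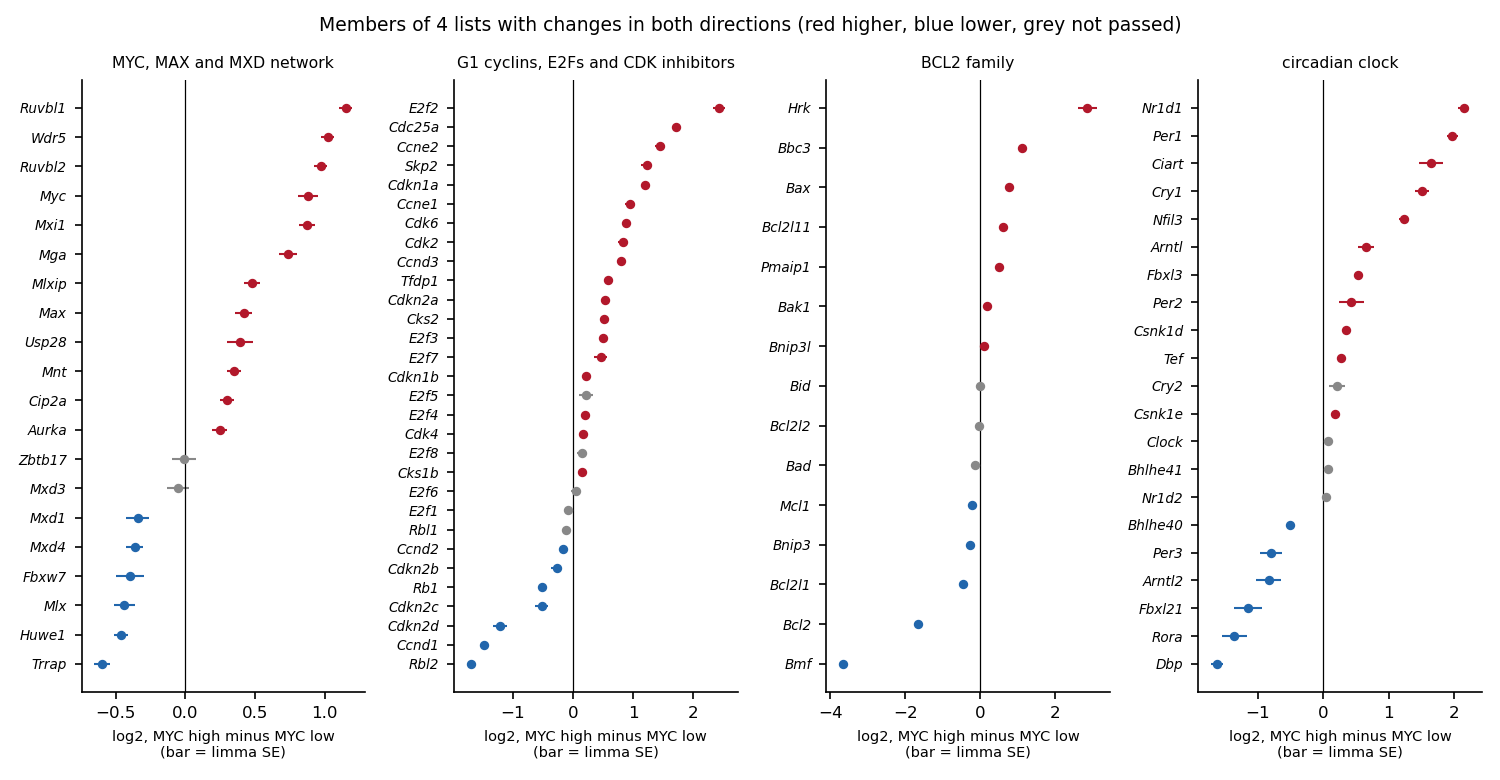
Log2 differences, MYC high minus MYC low, of the tested members of the MYC network, the G1 regulators, the BCL2 family and the circadian clock, 1 gene per line; bars are limma's SE, red is higher, blue lower and grey not passed. Each list has members on both sides of 0, from Bmf at -3.65 to Hrk at 2.85 in the BCL2 family.

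Genes that hold cells to each other and to the matrix were lower in most cases. Of 28 tested collagens, laminins and matrix glycoproteins 22 were lower, 3 higher and 3 not passed, with a median of -1.09, and 15 were at least 2-fold lower. Spp1 (osteopontin), the most abundant of the named matrix genes, had 3965 and 3928 normalized counts in MYC high and 16625, 16956 and 17229 in MYC low libraries (-2.10 ± 0.03). Agrn and Fbln2, a heparan sulfate proteoglycan and a fibulin, were lower, at -1.93 and -2.25. Thbs3 rose by 1.42, while Sparc differed by -0.03 ± 0.04. Integrins, the matrix receptors, were 9 lower, 1 higher and 1 not passed of 11 (median -0.74; 8 lower and 1 higher of the 10 in both groups). Itga3 had 3343 and 3008 and 8055, 7775 and 7932 (-1.32 ± 0.04), and the exception Itgb7 had 1244 and 1256 and 713, 667 and 663 (0.88 ± 0.07). Both pairs of groups were apart, in opposite directions. Matrix proteases and their inhibitors were 21 lower, 2 higher and 4 not passed of 27 (median -0.92; 20 lower and 2 higher of the 26 in both groups), with the inhibitor Timp2 at -2.54 and the lysyl oxidase Loxl3 at 1.18.

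Most actin, desmosome and keratin genes were also lower, with more exceptions, and tight junction genes were not. Actin and focal adhesion genes were 27 lower, 7 higher and 6 not passed of 40 (median -0.36; 24 lower and 6 higher of the 36 in both groups). Gsn (gelsolin), which severs actin filaments, had 508 and 562 normalized counts in MYC high and 2716, 2655 and 2680 in MYC low libraries (-2.33 ± 0.04), and the crosslinker Flna fell by 0.93. Actb stood at 0.01 ± 0.03, and the membrane linker Anxa2 rose by 0.95. Desmosome, adherens junction and keratin genes were 13 lower, 5 higher and 5 not passed of 23 (median -0.62; 12 lower and 3 higher of the 20 in both groups). The biliary keratin Krt19 had 1485 and 1468 and 3349, 3371 and 3034 (-1.14 ± 0.04), and Krt18 differed by -0.00066 ± 0.03. Only 3 reads of Krt7 came from MYC high cells, and its pooled level was 14.0 times higher in MYC low cells (95% counting interval 4.59 to 69.4). Desmoglein 2 (Dsg2), tested through the MYC high libraries alone, rose by 2.27 and plakoglobin (Jup) fell by 1.15. Tight junction genes were 4 higher, 5 lower and 6 not passed of 15 (median 0.01; 4 higher and 4 lower of the 14 in both groups), 33.3% lower against 37.3% of all tested genes. Claudin 2 (Cldn2), the claudin of leaky epithelia, had 2 reads in MYC high libraries and 89.7, 68.6 and 67.8 normalized counts in MYC low libraries. The ratio was 68.6 (18.8 to 569.5), and the tight junction gene Cgnl1 fell by 1.61. Targets and partners of YAP, a sensor of adhesion and tension, were 15 lower, 4 higher and 4 not passed of 23 (median -0.61). Ccn1, a secreted YAP target, had 895 and 941 and 3490, 3325 and 3483 (-1.90 ± 0.05), and Yap1 itself rose by 0.37.

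**Figure D5:**
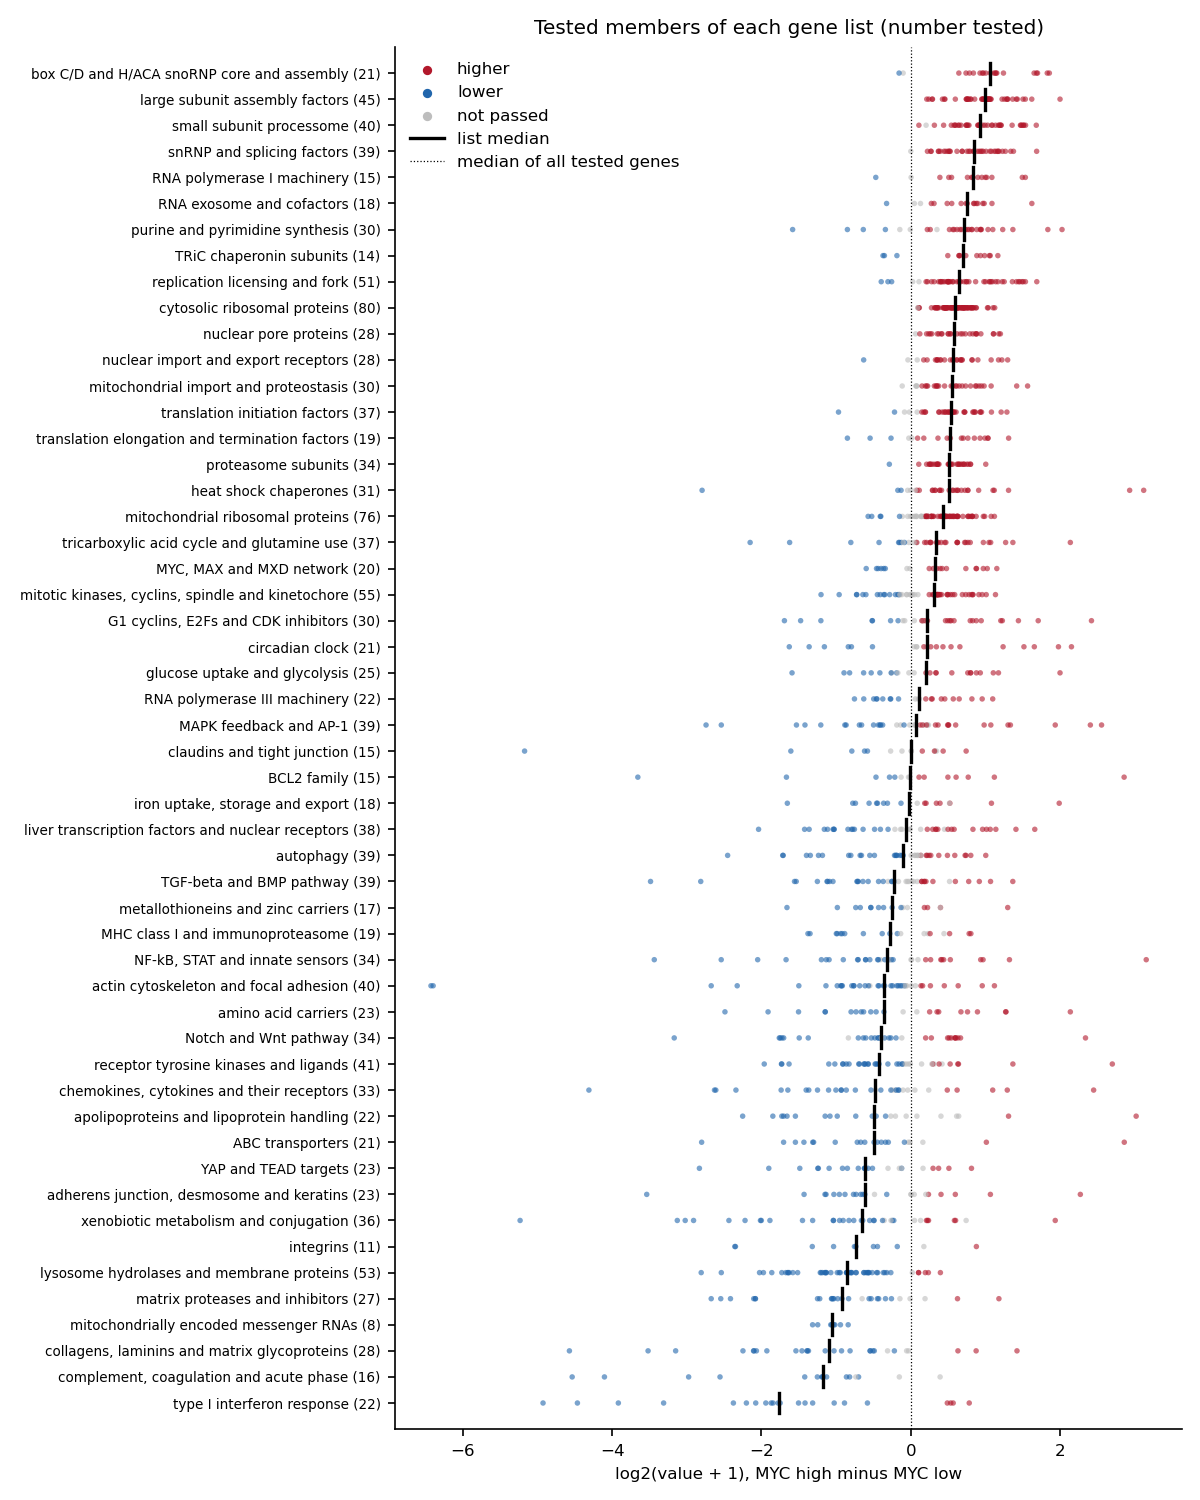
Every tested member of 52 gene lists as a point by its log2 difference, MYC high minus MYC low (horizontal axis), with red for higher, blue for lower and grey for not passed; black bars are list medians and the dotted line is the median of all tested genes. Lists of ribosome assembly stand at the top with nearly all points right of the line, and interferon, complement and matrix lists at the bottom.

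Signalling genes were lower more often than higher, and each pathway kept some risen members. Among all tested genes 37.3% were called in each direction. In the TGF-beta and BMP pathway 28.2% were higher and 48.7% lower, and among Notch and Wnt genes 32.4% and 58.8%. The TGF-beta and BMP pathway was 11 higher, 19 lower and 9 not passed of 39 (median -0.22; 10 higher and 18 lower of the 37 in both groups). Inhbb, an activin subunit, had 53.7 and 31.8 normalized counts in MYC high and 493, 495 and 434 in MYC low libraries (-3.48 ± 0.14). Tgfbr2, the type II receptor, had 1033 and 1033 and 2475, 2507 and 2405 (-1.25 ± 0.04). Both ligand subunit and receptor were lower in every MYC high library. The activin antagonist Fst and the type II activin receptor Acvr2b rose by 0.92 and 1.07, and Smad7 differed by 0.01 ± 0.07. Notch and Wnt genes were 11 higher, 20 lower and 3 not passed of 34 (median -0.40; 11 higher and 17 lower of the 31 in both groups). The Notch ligand Jag1 had 860.3 and 838 and 2821, 2762 and 2721 (-1.70 ± 0.05), while Jag2 rose by 0.54. Lgr5, a receptor for the Wnt-potentiating R-spondins, had 53.7 and 57.3 and 8.78, 11.3 and 10.7 (2.34 ± 0.27). The ligand Wnt4 and the receptor Fzd2 were lower, at -1.73 and -1.50.

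Receptor tyrosine kinases and their ligands were 7 higher, 26 lower and 8 not passed of 41 (median -0.43; 6 higher and 26 lower of the 39 in both groups). Nrg1, a ligand of the ERBB receptors, had 3961 and 4034 normalized counts in MYC high and 1555, 1531 and 1567 in MYC low libraries (1.36 ± 0.05). Fgfr3 had 318 and 303 and 1023, 1050 and 1030 (-1.73 ± 0.07), and Pdgfb fell by 1.63. Nrg1 was higher and Fgfr3 lower in both MYC high libraries, with no overlap between the groups. Fgf21, a fasting hormone of the liver and the largest rise of the list, stood at 29.7 and 31.8 and 1.95, 9.21 and 2.90, low counts in every library and tested through MYC high alone (2.70 ± 0.52). Immediate early and MAPK feedback genes split into 16 higher, 15 lower and 8 not passed of 39 (median 0.06, or -0.02 with scaling to the library total; 16 higher and 14 lower of the 38 in both groups), shares of 41% and 38.5% that lie near the 37.3% of all genes in each direction. Fosl1, an AP-1 subunit, had 5157 and 5259 and 1307, 1286 and 1509 (1.93 ± 0.06). Egr1, a serum-induced zinc finger factor, had 161 and 126 and 964, 970.1 and 945 (-2.74 ± 0.08). These AP-1 and serum response genes separated the groups with opposite signs. Ier5 and Klf6 rose by 2.40 and 1.30, Dusp6, the ERK phosphatase, fell by 1.53, and Junb differed by 0.04 ± 0.04.

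Innate immune genes were lower in most cases, many of them strongly. Among innate sensors and NF-kB or STAT regulators 29.4% were higher and 55.9% lower, and among MHC class I genes 21.1% and 57.9%. Over all tested genes the share was 37.3% in each direction. Of 53 interferon response genes 22 were abundant enough to be tested, 4 of them through the MYC low libraries alone. Of the 18 that passed the filter in both groups 4 were higher and 14 lower. Over the 22, 18 were lower and 4 higher with a median of -1.76, and 16 were at least 2-fold lower. Samd9l, a restriction factor, had 42.3 and 53.0 normalized counts in MYC high and 455, 517 and 466 in MYC low libraries (-3.31 ± 0.08). Lgals9 and the GPI-anchored Ly6e were lower, at -2.20 and -1.78, while Isg20, an antiviral exonuclease, had 404 and 361 and 247, 220 and 201 (0.78 ± 0.08). The groups did not overlap in Samd9l or Isg20. Innate sensors and NF-kB or STAT regulators were 10 higher, 19 lower and 5 not passed of 34 (median -0.32; 9 higher and 17 lower of the 31 in both groups), with Cish, a feedback inhibitor of STAT5, at 6.86 and 8.49 and 97.5, 81.9 and 98.7. Chemokines, cytokines and receptors were 5 higher, 21 lower and 7 not passed of 33 (median -0.48; 5 higher and 19 lower of the 31 in both groups). The interferon gamma receptor Ifngr1 had 343 and 321 and 2044, 2072 and 1984 (-2.61 ± 0.05), and the monocyte chemokine Ccl2 fell by 1.74. Only 2 reads of the alarmin Il33 came from MYC high cells, and its pooled level was 37.1 times higher in MYC low cells (95% counting interval 10.1 to 309.9). The neutrophil chemokines Cxcl3 and Cxcl5 rose by 2.45 and 1.29, and Cxcl1 differed by -0.04 ± 0.11. MHC class I genes were 4 higher, 11 lower and 4 not passed of 19 (median -0.28). B2m, the light chain, had 1897 and 1931 and 3785, 3795 and 3891, Tapbp of the peptide-loading complex fell by 1.35, and the transporter subunit Tap1 rose by 0.52. Of the 12 macrophage and blood markers given above, the 2 tested, Cd68 and Csf1r, were also lower in MYC high cells. Another 8 had no read in any of the 5 libraries. Whether cells with such markers had a part in the immune gene differences was not tested.

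Most tested genes of the secretory and detoxifying functions of the liver were lower, though few complement and coagulation genes were abundant enough to test. Of 67 complement, coagulation and acute phase genes 16 were tested, 3 through the MYC low libraries alone, and 13 were lower and 3 not passed (median -1.18; 10 lower of the 13 in both groups). Besides C3 and Cp, the membrane regulator Cd55 had 16.0 and 19.1 normalized counts in MYC high and 101, 102 and 120 in MYC low libraries (-2.56 ± 0.17). Of 76 genes of xenobiotic metabolism 36 were tested, with 25 lower, 6 higher and 5 not passed (median -0.65; 22 lower and 6 higher of the 32 in both groups). Ephx1, microsomal epoxide hydrolase, had 225 and 228 and 1723, 1686 and 1717 (-2.91 ± 0.05). The aldose reductase Akr1b3 had 9670 and 10295 and 2670, 2459 and 2723 (1.93 ± 0.04). Epoxide hydrolase was lower and aldose reductase higher in both MYC high libraries than in any MYC low library. Gsta3, a glutathione transferase, had 1 read in MYC high libraries against 48.8, 60.4 and 50.3 normalized counts in MYC low libraries, a ratio of 96.4 with a 95% counting interval of 17.1 to 3831. Lipoprotein genes were 13 lower, 2 higher and 7 not passed of 22 (median -0.49; 13 lower and 2 higher of the 21 in both groups), with the lysosomal lipase Lipa at -1.73 and the endocytic receptor Lrp2 at 1.31. ABC transporters were 16 lower, 2 higher and 3 not passed of 21 (median -0.49). The bile conjugate exporter Abcc3 had 370.2 and 377 and 2618, 2628 and 2580 (-2.80 ± 0.04), opposite in sign to Abcb1b.

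Transcription factors of liver identity did not move 1 way: 15 were higher, 16 lower and 7 not passed of 38 (median -0.07), shares of 39.5% and 42.1% near the 37.3% of all tested genes. Sox4, an SRY-box factor, had 2563 and 2543 normalized counts in MYC high and 5624, 5531 and 5451 in MYC low libraries (-1.12 ± 0.04), and Gata4, a zinc finger factor of the early liver, had 1339 and 1356 and 651, 634 and 720 (1.01 ± 0.07). These factors changed in opposite directions with no overlap. Rxra, the shared partner of many nuclear receptors, was lower (-0.78), Xbp1 rose by 1.14, and the bile acid receptor Nr1h4 differed by -0.14 ± 0.13. All 6 tested biliary markers of 9 were lower, 1 of them tested through MYC low alone (median -1.08). Of 6 tested fetal liver markers of 12, 4 were higher and 2 lower (median 0.73). The lower pair was the more abundant: the desaturase Scd2 fell by 1.42 ± 0.03 and the imprinted factor Peg3 fell by 0.93 ± 0.03, and the list summed to 11731 to 12014 normalized counts in MYC high and 22550 to 24420 in MYC low libraries. The RNA-binding proteins Igf2bp1 and Igf2bp3 rose by 0.67 and 1.59, and Afp, the fetal albumin relative, had 159 and 148 and 78.0, 106 and 83.2 (0.79 ± 0.13). Hepatocyte markers other than Ass1, which fell by 1.57, were too scarce to test.

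The circadian clock held some of the larger opposed changes, with 11 higher, 6 lower and 4 not passed of 21 (median 0.21). That is 52.4% higher and 28.6% lower, beside 37.3% of all tested genes in each direction. Nr1d1 (REV-ERB alpha), the repressor arm of the clock, had 1323 and 1300 normalized counts in MYC high and 286, 278 and 322 in MYC low libraries (2.15 ± 0.08). Per1, a light and glucocorticoid induced repressor, had 922 and 907 and 231, 222 and 243 (1.98 ± 0.09). Dbp, an output factor driven by CLOCK and BMAL1, had 144 and 122 and 431, 399 and 406 (-1.63 ± 0.09). Nr1d1 and Per1 were high and Dbp low in both MYC high libraries, with limma's adjusted p at most 8.45e-19. Nfil3, which competes with Dbp for the same sites, rose by 1.23, and Rora, an activator of the opposite arm, and Fbxl21, a ligase of the cryptochromes, were lower, at -1.36 and -1.16. Other repressors did not follow Nr1d1 and Per1: Bhlhe40 fell by 0.51, and Nr1d2, the paralogue of Nr1d1, Bhlhe41 and Cry2 did not pass, at 0.04 ± 0.06, 0.08 ± 0.07 and 0.21 ± 0.12. Without MYC high replicate 2, Cry2 passed at 0.33 (limma's adjusted p = 0.0436). Clock differed by 0.08 ± 0.05. Of 17 clock promoters with a RefSeq start 5 held the E-box (29.4%, against 8.91% of all tested promoters), a share that rests on few genes.

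Lysosomal genes were lower with few exceptions. Of 53 tested hydrolases and membrane proteins 47 were lower, 5 higher and 1 not passed, with a median of -0.85, and 20 were at least 2-fold lower. Ctsl, a cysteine protease, had 5492 and 5338 normalized counts in MYC high and 16449, 17070 and 17178 in MYC low libraries (-1.64 ± 0.03). Man2b1, a mannosidase, had 210.2 and 231 and 1317, 1274 and 1266 (-2.54 ± 0.06). Neither gene overlapped between the groups, and the saposin precursor Psap and the sialidase Neu1 were lower, at -1.14 and -1.97. The exceptions were small: Laptm4b rose by 0.39 and Cd63 by 0.23, and the regulator Tfe3 differed by 0.02 ± 0.05. Autophagy genes split into 12 higher, 20 lower and 7 not passed of 39 (median -0.10). These shares, 30.8% and 51.3%, stand beside 37.3% of all tested genes in each direction. Tecpr1 and Ulk2 were lower, at -2.45 and -1.71, while the cargo receptor Sqstm1 had 54187 and 55074 and 36206, 36013 and 36850 (0.59 ± 0.03), and Map1lc3b differed by 0.0033 ± 0.05. An E-box stood upstream of lower genes too. Of 42 lysosomal promoters 11 held it, a count that cannot be compared with other sets because 79.2% of the genes had a promoter. A pair of them, chosen after the values were seen, is shown beside the risen genes above. Naglu lies at chr11:101069844-101070093 on the plus strand, with the motif 73 bases before the first start that RefSeq lists. Ctsl lies at chr13:64370521-64370770 on the minus strand, with the motif 236 bases before its first listed start. Whether transcription begins at that start in these cells was not tested.
Naglu: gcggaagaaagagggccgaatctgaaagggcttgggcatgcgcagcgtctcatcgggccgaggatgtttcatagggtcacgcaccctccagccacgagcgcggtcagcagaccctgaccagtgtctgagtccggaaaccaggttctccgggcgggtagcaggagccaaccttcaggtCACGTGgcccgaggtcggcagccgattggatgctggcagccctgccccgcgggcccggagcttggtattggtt
Ctsl: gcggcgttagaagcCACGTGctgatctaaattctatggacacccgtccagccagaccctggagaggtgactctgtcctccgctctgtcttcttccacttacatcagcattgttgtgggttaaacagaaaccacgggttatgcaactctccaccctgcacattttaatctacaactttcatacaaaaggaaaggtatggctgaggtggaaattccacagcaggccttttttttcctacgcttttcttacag
Naglu, the hydrolase of heparan sulfate, fell from 1189, 1168 and 1223 normalized counts in MYC low libraries to 343 and 313 in MYC high libraries (-1.86 ± 0.06).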

How the data were processed

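The deposited signal values are normalized counts, 1 per gene and library, as the labels describe them. Tools in the submitters' processing notes are FastQC and fastp, STAR with SAMtools, HTSeq and DESeq2, on mouse build GRCm39. The sources used here give no versions or settings, strand included, and genes that overlap on opposite strands may share reads. All values (100%) were whole reads times 1 step per library within 0.001, and edgeR 4.0.16 and DESeq2 1.42.0 were run on those recovered reads as alternatives. Edge cases of 1 to 3 reads in a group are given as ratios of pooled reads with exact 95% intervals, which like the limit of 3 reads for a count of 0 cover counting error only. Values were analysed as log2(value + 1) with limma 3.58.1 in R 4.3.3, 1 mean for each of the 4 groups over all 11 libraries, moderated along the mean level (prior degrees of freedom 29.5, residual 7), with Benjamini-Hochberg adjustment over the 12764 genes with a mean of at least 10. The pooled spread assumes that the 2 MYC high libraries vary like the others. The fit was also run on simulated counts with a common dispersion for all genes and few changed genes. That setting differs from these data, where most genes were called, so no conclusion about the calls is drawn from it.

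Symbols, lengths and GC content came from GENCODE M21 (GRCm38), matched to 52083 of 55416 identifiers, and promoters from RefSeq (GRCm38.p6), both of an earlier build than the deposited values. Named genes are Myc, the 10 largest differences in each direction (mean of at least 100, adjusted p under 0.05, no overlap), and from each list up to 4 members with the smallest adjusted p and up to 4 opposed and 4 not passed. Afp, Ass1, Cd68, Csf1r, Dntt, E2f2, Fgf21, Gsta3, Hspa1a, Il33, Krt7, Naglu, Pdk3 and Polr3gl were named after their values were seen. Members and lists were chosen with earlier results of these data known, and lists were written from general knowledge and share some members. List counts and medians cover the members that met the filter and are descriptions set beside all tested genes. Some genes are not reported here.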

Additional observations from a re-analysis of the deposited data

Results flagged for a closer look

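Genes named above were compared between the media, and 8 of them passed the test in both media with opposite directions and an interaction of at least 2 on the log2 scale. The interaction is the MYC difference at 200 µM minus that at 10 µM methionine, and its adjusted p is limma's over all 12764 tested genes. No group held the 4 libraries that a check for single divergent samples needs. Among the stress-induced chaperones, Hspa1b stood at 2.93 at 200 µM and -1.19 at 10 µM (interaction 4.12 ± 0.20, limma's adjusted p = 1.61e-19), and its near-identical copy Hspa1a at 3.12 and -0.86 (3.97 ± 0.39, adjusted p = 4.50e-11). The R-spondin receptor Lgr5 stood at 2.34 and -1.71 (4.04 ± 0.36, adjusted p = 2.21e-12). The stress factor Atf3 was higher in MYC high cells at 200 µM (2.55) and lower at 10 µM (-0.20), with an interaction of 2.75 ± 0.12 (adjusted p = 3.27e-21). The lysosomal and macrophage glycoprotein Cd68 was lower at 200 µM (-1.63) and higher at 10 µM (1.15), with an interaction of -2.78 ± 0.16 (adjusted p = 3.54e-17). The glucose carrier Slc2a1 followed the same order, -0.63 and 1.50 (-2.13 ± 0.07, adjusted p = 4.56e-24), as did the ERK phosphatase Dusp6, -1.53 and 0.51 (-2.04 ± 0.11, adjusted p = 2.10e-18). The desaturase Scd2 also lay lower at 200 µM (-1.42) and higher at 10 µM (0.98), with an interaction of -2.39 ± 0.05 (adjusted p = 1.62e-32).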

How the results depend on the processing

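Under the 15 alternatives tried (pseudocounts, filters, scalings, edgeR, DESeq2, a replicate block, only the 5 libraries, and each library left out) every gene called both there and in the main test kept its direction. The alternatives reuse the same libraries, and only genes called in both fits are compared, so a change of direction could hardly occur. Not every call was kept: of the 9527 genes called in the main test, 8940 were also called by DESeq2 and 8929 with scaling to the library total. With no filter beyond 1 read, 1390 genes were at least 2-fold higher in place of 894, since scarce genes then entered. Leaving out 1 library at a time gave 4371 to 4635 higher and 4430 to 4615 lower genes, with 883 to 908 at least 2-fold higher and 1455 to 1484 at least 2-fold lower. Where a MYC high library was left out, the other was assumed to vary like the other groups. Scaling to the library total moved the median of all genes to -0.08 and gave 4165 higher and 5338 lower genes (43.8% higher, 50% in the main test). Under that scaling the median of the MAPK and AP-1 list became -0.0234 and Actb fell by 0.0805, while E2f1, Bag3, Hnrnpa1, Krt18, Pfkl, Rbl1, Sparc and Top2a passed as lower. The causes were not tested. The median of the tight junction list, 0.01, became -0.10 without MYC high replicate 2. Deviations from the group means correlated at -0.0336 and 0.0128 between same-numbered libraries at 200 µM. With 2 MYC high libraries these deviations mirror each other, so the correlations cannot decide whether the numbers mark pairs. The labels do not state pairs, and the main test does not use the replicate numbers. With the replicate block 4727 genes were higher, 4701 lower, 899 at least 2-fold higher and 1470 at least 2-fold lower, and among named genes the block ended the calls of Hsf1 and Pih1d1 and let Rpl37a pass. A library with 0 reads on a gene allows up to 3 reads, 2.90 to 3.43 normalized counts, so losses of scarce genes are bounded by counting error alone.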
